A study of Mus musculus with 6 samples.

Results

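A cluster of 6 chemokine genes on mouse chromosome 5 is described here in CD31 bead fractions labelled tumor endothelial cells (TECs), with and without forced Notch signaling: Cxcl1, Cxcl2, Cxcl3, Cxcl5, Ppbp and Pf4. The members are the rows of the deposited expression table with these gene names, 6 of 23473 RefSeq rows, and all 6 were among the 12320 rows that passed the filter on low values. They were chosen by their measured RPKM (reads scaled by gene length and library total) in NICeCA against Ctrl libraries, the contrast described below, so their levels and fold changes are given as a description and no p-value is given for them. Total RNA was taken from cells captured on CD31 beads out of tumors of the transplanted mouse line Lewis lung carcinoma (LLC), for 3 control (Ctrl) and 3 NICeCA libraries. Ribosomal RNA was removed with a depletion kit before the libraries were made. The study's methods name 3 pairs of NICeCA and control mice, so each library is taken here to come from a mouse of its own. Ctrl mice were labelled wild type. NICeCA mice carried Cdh5-CreERT and a Rosa26 allele in which a floxed stop precedes the Notch1 intracellular domain (NIC), so that NIC is made in cells that have used the Cdh5 promoter and received tamoxifen (100 mg/kg daily for 5 days). Whether Ctrl mice received tamoxifen is not spelled out in the sources used here. The fractions also held abundant macrophage RNA, with Lyz2 at 2611 to 5555 RPKM and the CD31 gene Pecam1 at 47.5 to 154 RPKM. All mice were C57BL/6, 8 weeks old, and bore LLC tumors. The methods give day 14 after inoculation for the collection, whereas the labels speak of several days.

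These genes encode CXC chemokines, small secreted proteins that guide leukocytes through G protein-coupled receptors. Cxcl1, Cxcl2, Cxcl3, Cxcl5 and Ppbp carry the ELR motif and attract neutrophils through CXCR2, and inflamed endothelium, macrophages and neutrophils themselves are known sources of several of them. Ppbp and Pf4 are best known from megakaryocytes and platelets, which store their proteins in alpha granules. Pf4 lacks the ELR motif, binds heparin and is also transcribed by some macrophages.

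Levels are given in RPKM, which can be compared between genes. Reads on RefSeq rows numbered 29818454, 30769916 and 30196775 in Ctrl replicates 1 to 3 and 28877355, 27793301 and 29194187 in NICeCA replicates 1 to 3. Fold changes are differences of log2(RPKM + 1) with their standard error (SE) from a limma fit over all 12320 rows, and "called" means a Benjamini-Hochberg adjusted p under 0.05 in that fit. Changes of rows with low RPKM are understated on this scale. On the first principal component of these rows (63.9% of the variance), Ctrl replicate 2 scored -46.41 and stood apart from Ctrl replicates 1 (-19.75) and 3 (-13.58), with the NICeCA libraries at 31.39, 31.19 and 17.15. The ribosomal precursor Rn45s took 3.86%, 6.4% and 1.87% of reads on RefSeq rows in Ctrl and 0.82%, 1.06% and 1.92% in NICeCA libraries, highest in Ctrl replicate 2, and its part in the results was not tested. In bulk RNA, fewer cells of a type and less RNA per cell cannot be told apart.

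The labels were checked against Notch genes first. Notch1 itself was at 14.3, 8.19 and 13.8 RPKM in Ctrl and 12.3, 13.6 and 12.6 in NICeCA libraries (log2 fold change 0.11, SE 0.20, limma adjusted p = 0.71). Hey1, a direct Notch target of endothelium, rose from 5.55, 2.69 and 2.78 RPKM to 6.05, 10.6 and 9.91 (log2 fold change 1.10, SE 0.27, limma adjusted p = 0.041), but this call was lost when Ctrl replicate 2 or 3 or any NICeCA replicate was left out, with no filter on low values and after quantile normalization. Nrarp, a target that feeds back on the pathway, was at 16.5, 6.34 and 7.59 against 19.3, 21.1 and 21 RPKM (1.05, SE 0.29, limma adjusted p = 0.052). Hes1 was at 13.1, 7.70 and 8.87 against 8.33, 7.85 and 9.46 RPKM (-0.16, SE 0.19, limma adjusted p = 0.56). Hey1 and Nrarp were thus higher in every NICeCA library than in every Ctrl library, and Notch1 and Hes1 overlapped between the groups. All 20 endothelial genes described below also had a positive log2 fold change (median 0.66). Ctrl replicate 1 was the highest Ctrl library for Hey1, Nrarp and the endothelial sum. The part of the endothelial share in the levels of Hey1 and Nrarp was not tested.

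The 6 genes lie on the forward strand within 146.6 kb of chromosome 5 (GRCm38). From the first to the last they are Cxcl5 (chr5:90759298-90761625), Ppbp (chr5:90768518-90770060), Pf4 (chr5:90772435-90773383), Cxcl3 (chr5:90786101-90788093), Cxcl1 (chr5:90891245-90893115) and Cxcl2 (chr5:90903899-90905938). Cxcl5, Ppbp, Pf4 and Cxcl3 follow each other with gaps of 6.9, 2.4 and 12.7 kb. A gap of 103.2 kb separates them from Cxcl1 and Cxcl2, which are 10.8 kb apart. In the GENCODE annotation 0 other genes overlap any member, and the spans given cover exons and introns of each gene. Cxcl2 and Cxcl3 share short stretches of sequence, with 7.4% and 8.1% of their 31-base windows and 1.1% and 1.2% of their 100-base windows found in another member's transcripts, so a small share of their reads could be assigned to either. The other 4 members shared no such window.

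The 100 bases before the start of each gene are shown because the 6 genes moved together and the sequences differ within the cluster. RefSeq (GRCm38.p6) gave windows for 5 members, all read on the forward strand. Capitals mark matches to an NF-kB-like motif, GGNNTTTCC on either strand, and to the TATA box letters TATAAA. NF-kB is the transcription factor through which many inflammatory signals act.
Ppbp, chr5:90768418-90768517: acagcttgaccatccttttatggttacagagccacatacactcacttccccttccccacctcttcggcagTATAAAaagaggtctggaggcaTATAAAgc
Pf4, chr5:90772335-90772434: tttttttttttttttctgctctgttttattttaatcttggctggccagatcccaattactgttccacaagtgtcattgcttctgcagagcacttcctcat
Cxcl3, chr5:90786001-90786100: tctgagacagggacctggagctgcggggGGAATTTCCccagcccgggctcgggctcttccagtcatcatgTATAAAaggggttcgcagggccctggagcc
Cxcl1, chr5:90891145-90891244: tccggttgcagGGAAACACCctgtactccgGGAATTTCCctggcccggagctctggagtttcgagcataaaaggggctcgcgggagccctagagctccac
Cxcl2, chr5:90903799-90903898: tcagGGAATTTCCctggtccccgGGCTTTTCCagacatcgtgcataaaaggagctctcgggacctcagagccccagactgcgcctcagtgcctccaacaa
The NF-kB-like letters stood in the windows of Cxcl1, Cxcl2 and Cxcl3 and not in those of Ppbp and Pf4. In Cxcl1 they ended 62 bases before the start, with a second match on the reverse strand between 89 and 81 bases before it. Cxcl2 held matches from 96 to 88 and from 77 to 69 bases before the start, and Cxcl3 held 1 from 72 to 64. The same 9 letters, GGAATTTCC, occurred in all 3 genes. Of 32851 RefSeq promoter windows of 300 bases (250 before and 50 after the start), 5.82% held the motif.

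Other motifs were searched on both strands of the same 300-base windows. TATAAA was found in Cxcl3 and Ppbp, in each from 30 to 25 bases before the start, and in 13.6% of all windows. The Pf4 window held AGATAA, the letters of GATA factors, from 36 to 41 bases counted from the start, as did 11.2% of all windows. Pf4 also held TTGCNNAA, a C/EBP-like motif present in 10.8% of windows, and Ppbp held TGANTCA, an AP-1 motif present in 7.81%. GTGGGAA, the letters bound by RBPJ, the DNA-binding partner of NIC, were in 6.38% of all windows and in 0 of the 5 member windows, which says only that these letters are not in these windows. A match is a description and not a binding site. None of these motifs overlaps another in the member windows.

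The pentamer ATTTA, a mark of short-lived cytokine transcripts, was counted in the GENCODE transcripts, a search chosen after the expression values had been seen. Cxcl2 had 11 copies (9.92 per kb of transcript), a density reached by 0.0282% of the first-listed transcripts of 21291 protein-coding genes. Cxcl1 had 7 copies (7.35 per kb, reached by 0.0986%), Cxcl3 had 5 (4.92 per kb, reached by 0.54%) and Cxcl5 had 5 (3.17 per kb, reached by 3.56%). Ppbp and Pf4 had 1 copy each, at 0.923 and 1.70 per kb, densities reached by 43.2% and 19.8% of transcripts. The median over all transcripts was 0.736 per kb.

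Among the CXCR2 ligands, Cxcl1, known as KC and induced early by inflammatory signals, was at 106, 99.4 and 91.3 RPKM in Ctrl and 234, 332 and 445 in NICeCA libraries. The Ctrl libraries lay within 1.17-fold of each other, and the lowest NICeCA library stood 2.20-fold above the highest Ctrl library. The means were 99.0 ± 7.57 in Ctrl and 337 ± 106 RPKM in NICeCA libraries (SD, n = 3; log2 fold change 1.71, SE 0.23).

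Cxcl2, or MIP-2, a chemokine made in large amounts by activated macrophages and neutrophils, was at 273, 252 and 428 RPKM in Ctrl and 1125, 1512 and 1574 in NICeCA libraries. The groups did not overlap, with the lowest NICeCA library 2.63-fold above the highest Ctrl library, Ctrl replicate 3. The means were 318 ± 96.3 and 1404 ± 243 RPKM (SD, n = 3; log2 fold change 2.17, SE 0.23). By level Cxcl2 held rank 50, 20 and 23 among the 23473 RefSeq rows in the NICeCA libraries, and rank 203, 216 and 147 in the Ctrl libraries.

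Cxcl3, a further ELR chemokine of the same group, was at 14.5, 47.0 and 118 RPKM in Ctrl and 533, 637 and 955 in NICeCA libraries. The Ctrl libraries spread over 8.18-fold, the widest range of any member, yet the highest of them lay 4.50-fold below the lowest NICeCA library. Its mean was 59.9 ± 53.1 RPKM in Ctrl and 708 ± 220.2 RPKM in NICeCA libraries (SD, n = 3), with a log2 fold change of 3.95 (SE 0.64).

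Cxcl5, or LIX, which epithelial and stromal cells make, was the least abundant member. It was at 0.51, 1.58 and 2.48 RPKM in Ctrl and 3.39, 11.4 and 19.1 in NICeCA libraries, from 33 to 1175 reads. NICeCA replicate 1 stood only 1.37-fold above Ctrl replicate 3, the smallest gap of the 6 genes, and the NICeCA libraries spread over 5.62-fold. Means were 1.52 ± 0.985 and 11.3 ± 7.83 RPKM (SD, n = 3; log2 fold change 2.11, SE 0.53).

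Ppbp, whose product is cleaved to the neutrophil attractant NAP-2, was at 5.83, 8.81 and 21.1 RPKM in Ctrl and 177, 173 and 279.9 in NICeCA libraries. Its groups were the furthest apart, the lowest NICeCA library lying 8.21-fold above the highest Ctrl library, and its log2 fold change of 4.17 (SE 0.40) ranked 2 among the 12320 rows. Pf4, the platelet factor without the ELR motif, was at 116, 102 and 172 RPKM in Ctrl and 1126, 1035 and 889 in NICeCA libraries. The NICeCA libraries agreed within 1.27-fold and lay at least 5.16-fold above each Ctrl library. The Pf4 means were 130.2 ± 37.1 and 1017 ± 119 RPKM (SD, n = 3; log2 fold change 2.98, SE 0.21), and it held rank 48, 49 and 60 by level in the NICeCA libraries.

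**Figure D1:**
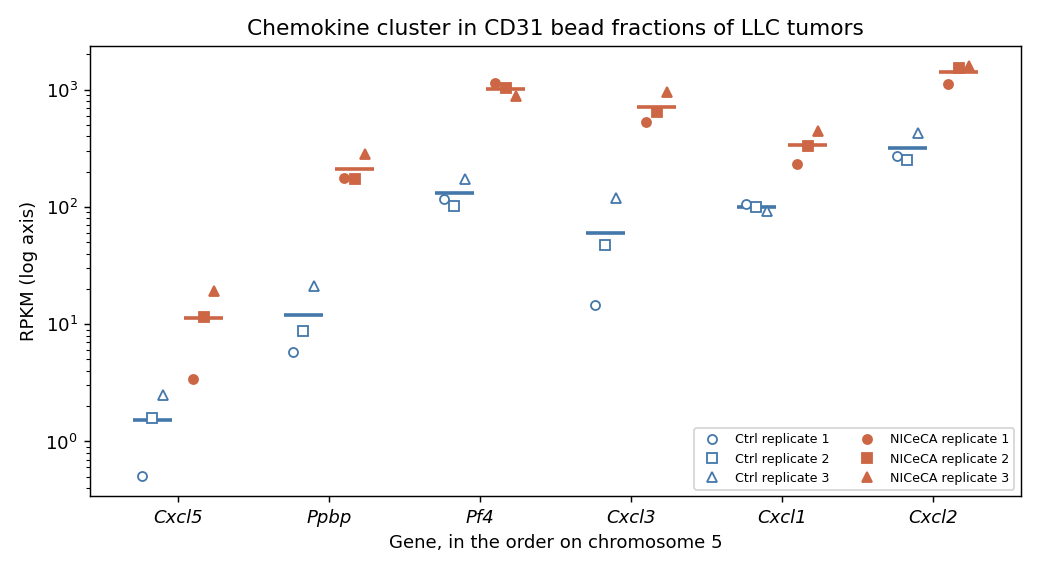
RPKM of the 6 chemokine genes (log axis) in each library, with genes in their order on chromosome 5, open blue symbols for Ctrl, filled orange symbols for NICeCA, and a bar at each group mean (n = 3). For each gene all 3 NICeCA libraries lie above all 3 Ctrl libraries, with the narrowest gap (1.37-fold) for Cxcl5 and the widest (8.21-fold) for Ppbp.

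All 6 members were called higher in NICeCA libraries and were separated between the groups, which follows from how they were chosen and is no test of them. The median of their log2 fold changes was 2.58, against -0.05 over all rows fitted. As background, 5.88% of the 12320 rows were called higher (725 rows), 7.68% were called lower (946 rows), and 16.5% had every NICeCA library above every Ctrl library. After trimmed mean scaling these counts were 1084 higher and 657 lower, and after quantile normalization 446 and 325. With NICeCA replicate 2 left out, 2 of the 6, Ppbp and Pf4, were called, although log2 fold changes of all 6 stayed positive. In that fit 17 rows in all were called higher and 1 lower. All 6 members were higher there at an unadjusted limma p under 0.05, which is again no test of them. Without NICeCA replicate 1 the call of Cxcl3 was lost, and without Ctrl replicate 1 or 2 or NICeCA replicate 3 that of Cxcl5, which was also lost with no filter on low values, after quantile normalization and by limma voom. Among the genes outside the cluster that are given below by list with an adjusted p, Areg, Mmp8 and Mmp9 were the only ones still called without NICeCA replicate 2.

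The 3 libraries of a group did not vary alike across members. Ctrl replicate 3 was the highest Ctrl library for Cxcl2, Cxcl3, Cxcl5, Ppbp and Pf4, and the lowest for Cxcl1. NICeCA replicate 3 was the highest NICeCA library for the 5 CXCR2 ligands and the lowest for Pf4.

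By level per length, the order in Ctrl libraries was Cxcl2, Pf4, Cxcl1, Cxcl3, Ppbp and Cxcl5. Cxcl2 exceeded Pf4 in each Ctrl library, by 1.28 ± 0.04 on the log2 scale (SD, n = 3), whereas Pf4 and Cxcl1 (0.36 ± 0.48) and Cxcl1 and Cxcl3 (1.20 ± 1.63, higher in 2 of 3 libraries) differed by less than their spread. Cxcl3 lay above Ppbp by 2.07 ± 0.66 and Ppbp above Cxcl5 by 3.03 ± 0.52, in 3 of 3 libraries each. The order in NICeCA libraries was Cxcl2, Pf4, Cxcl3, Cxcl1, Ppbp and Cxcl5. Here Cxcl3 lay above Cxcl1 in 3 of 3 libraries (1.08 ± 0.13), the reverse of their order in the first and second Ctrl libraries. Cxcl2 and Pf4 differed by 0.46 ± 0.42 (Cxcl2 higher in 2 of 3) and Pf4 and Cxcl3 by 0.56 ± 0.60 (Pf4 higher in 2 of 3). Cxcl1 exceeded Ppbp by 0.67 ± 0.27, and Ppbp exceeded Cxcl5 by 4.50 ± 1.04.

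Together the 6 genes summed to 517, 511 and 834 RPKM in Ctrl and to 3198, 3701 and 4163 RPKM in NICeCA libraries. Cxcl2 made up 52.9%, 49.3% and 51.4% of that sum in Ctrl and 35.2%, 40.9% and 37.8% in NICeCA libraries. Cxcl3 took 2.80%, 9.20% and 14.2% in Ctrl and 16.7%, 17.2% and 23.0% in NICeCA libraries. The largest single share thus stayed with Cxcl2 in 5 of 6 libraries, with Cxcl2 and Pf4 level at 35.2% in NICeCA replicate 1, while Cxcl3 was a larger share in each NICeCA library than in each Ctrl library. Cxcl1 had 20.6%, 19.5% and 11% in Ctrl against 7.31%, 8.97% and 10.7%. Ppbp had 1.13%, 1.73% and 2.53% against 5.54%, 4.67% and 6.72%. Pf4 overlapped between the groups, at 22.5%, 20% and 20.7% against 35.2%, 28.0% and 21.4%, and Cxcl5 stayed at or below 0.458% throughout.

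**Figure D2:**
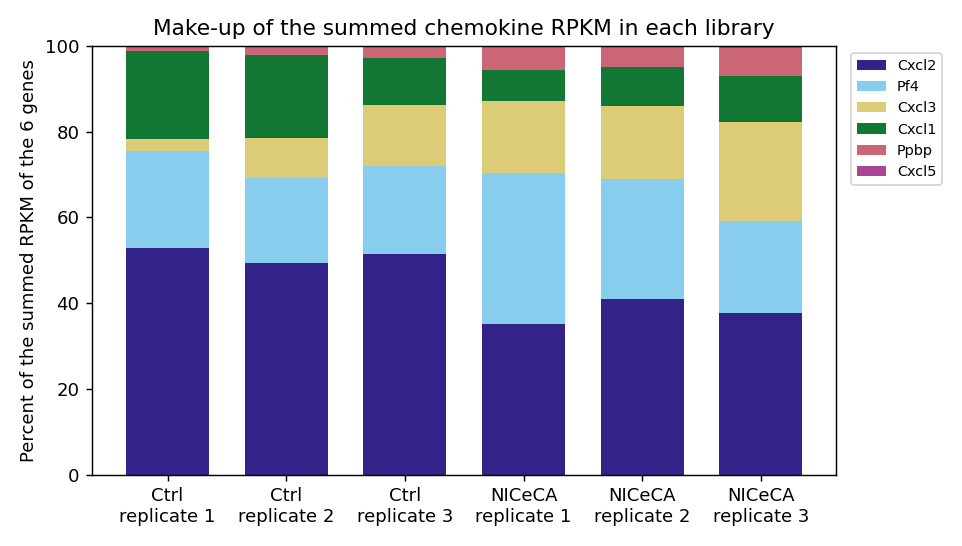
Share of each gene in the summed RPKM of the 6 chemokine genes (percent, stacked bars, 1 bar per library). Cxcl2 holds between 49.3% and 52.9% in the Ctrl libraries and between 35.2% and 40.9% in the NICeCA libraries, where Cxcl3 and Ppbp take larger shares, and Cxcl5 is too small to be visible.

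Genes beside the cluster were compared because the members share a chromosomal neighborhood. Of 12 neighbors with a row, 4 were abundant enough to be fitted, 1 was called higher and 0 were called lower by limma, with a median log2 fold change of 0.29. Areg, which encodes the EGF receptor ligand amphiregulin, rose from 3.78, 3.33 and 5.82 RPKM to 23.0, 12.9 and 18.5 (log2 fold change 1.85, SE 0.24, limma adjusted p = 0.011), and its groups did not overlap. Mthfd2l, a mitochondrial folate enzyme and the nearest of these genes to Cxcl2, was at 2.00, 3.13 and 2.51 against 2.59, 2.44 and 3.59 RPKM (0.13, SE 0.17, limma adjusted p = 0.63). Ereg, encoding the related ligand epiregulin, was at 0.514, 0.832 and 0.973 against 1.22, 1.07 and 1.97 RPKM, and its groups did not overlap. Its log2 fold change was 0.44 (SE 0.19, limma adjusted p = 0.14). With a pseudocount of 0.1 it was 0.79 and by limma voom 0.84, without a call in either. Ankrd17 was at 10.6, 10.2 and 12.2 against 7.31, 7.53 and 8.88 RPKM (-0.43, SE 0.13, limma adjusted p = 0.058), and was the 1 neighbor lower at an unadjusted p under 0.05 and by limma voom. Cxcl15, which lies between Cxcl3 and Cxcl1 and is listed under the older name Il8, stayed at or below 0.0757 RPKM in every library. Cxcl15 was too low for a fold change to be read. The other 7 neighbors, Alb, Afp, Afm, Rassf6, Epgn, Btc and Parm1, were at or below 0.67 RPKM in every library.

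**Figure D3:**
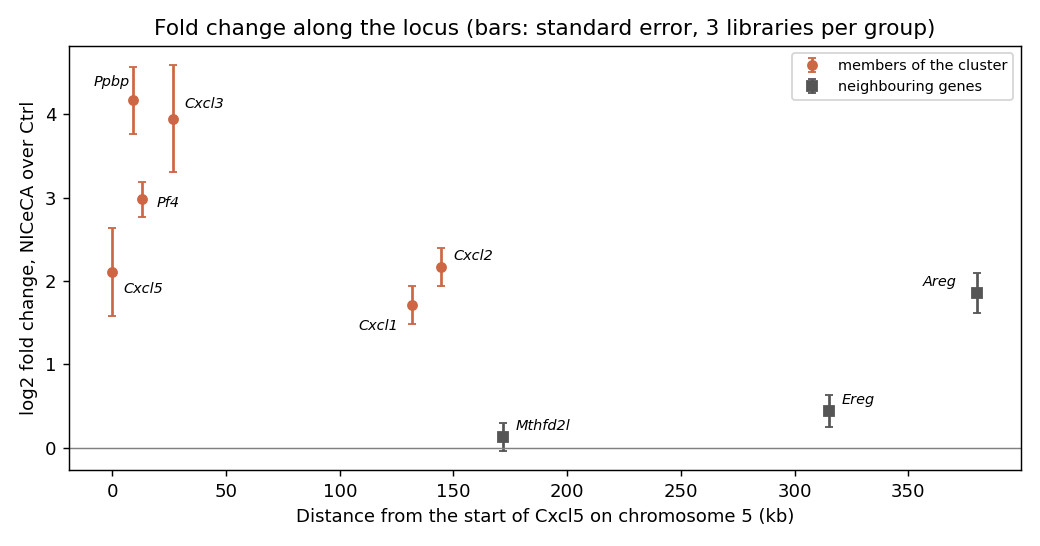
log2 fold change of NICeCA over Ctrl libraries (vertical axis, bars are the SE, 3 libraries per group) against distance from the start of Cxcl5 in kb, for the 6 members (orange circles) and the fitted neighbors on the distal side (grey squares, Ankrd17 lies outside the range). Members lie between 1.71 and 4.17, Mthfd2l at 0.13, Ereg at 0.44 and Areg at 1.85.

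Chemokine receptor genes were not used to choose the members. Of 6 receptor genes, 4 were fitted, 1 was called higher and 0 were called lower (limma and limma voom, also 0 lower at an unadjusted p under 0.05), with a median log2 fold change of 0.49. Cxcr2, the main receptor of the ELR chemokines and a gene of mature neutrophils, was at 1.30, 2.15 and 3.30 RPKM in Ctrl and 4.79, 6.48 and 11.1 in NICeCA libraries (log2 fold change 1.36, SE 0.31, limma adjusted p = 0.036). The groups did not overlap, but the call was lost without any 1 of Ctrl replicates 1 and 2 and NICeCA replicates 1 to 3, and with no filter on low values. Cxcr1 was too low to be fitted, at 0.114, 0.112 and 0.639 against 0.634, 0.68 and 3.75 RPKM. Ackr3, a scavenging receptor of endothelium listed as Cxcr7, was at 12.3, 6.41 and 7.01 against 14.9, 13.7 and 15.8 RPKM (0.77, SE 0.22, limma adjusted p = 0.053), separated between the groups, and was called without Ctrl replicate 1 (1.03, limma adjusted p = 0.024). Ackr1, the venular chemokine transporter listed as Darc, was at 3.29, 2.28 and 4.74 against 1.51, 7.73 and 4.68 RPKM (0.21, SE 0.42, limma adjusted p = 0.75). Cxcr3, which Pf4 can bind in some settings, was at 9.84, 3.54 and 6.6 against 6.13, 6.96 and 6.73 RPKM (0.08, SE 0.28, limma adjusted p = 0.87). Ackr2 stayed at or below 0.481 RPKM. Cxcr2 was thus the receptor called, and groups overlapped for Cxcr1, Cxcr3, Ackr1 and Ackr2.

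Cytokines, receptors and NF-kB pathway genes that are textbook inducers or feedback regulators of these chemokines were taken as a list of 24, of which 23 were fitted. Of these, 7 were called higher and 0 lower (limma and limma voom, with 2 lower at an unadjusted p under 0.05), and the median log2 fold change was 0.47 beside -0.05 for all rows. Without NICeCA replicate 2, 0 of the 7 calls were left (9 at an unadjusted p under 0.05), and without NICeCA replicate 1, 3 genes were called. Il1b, encoding the inflammasome-processed cytokine IL-1β, rose from 252, 169.9 and 386 RPKM to 718, 859 and 929.5 (log2 fold change 1.70, SE 0.28, limma adjusted p = 0.020). It was the most abundant of the list in the NICeCA libraries and in Ctrl replicate 3. In Ctrl replicates 1 and 2 the NF-kB inhibitor gene Nfkbia was higher, at 397 and 307 RPKM. Il1a, encoding the alarmin IL-1α, rose from 6.15, 3.93 and 11.9 RPKM to 33.6, 64.2 and 74.7 (2.85, SE 0.39, limma adjusted p = 0.012). For both IL-1 genes every NICeCA library lay above every Ctrl library, and the call of Il1b was lost without NICeCA replicate 1.

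Tnf, a cytokine that activates NF-kB, rose from 13.6, 17.4 and 20.8 RPKM to 47.6, 91.1 and 76.5 (log2 fold change 1.96, SE 0.25, limma adjusted p = 0.011). Csf3, encoding the granulocyte growth factor G-CSF, rose from 0.658, 1.03 and 1.17 RPKM to 4.10, 4.63 and 5.36 (1.55, SE 0.16, limma adjusted p = 0.0088). Il6 (1.85, SE 0.32), Nfkbia, the NF-kB inhibitor that NF-kB itself induces (1.04, SE 0.17), and the endotoxin receptor Tlr4 (0.85, SE 0.20) were the other genes called. The NF-kB subunits themselves were not among them: Nfkb1 had a log2 fold change of -0.22 (SE 0.13, limma adjusted p = 0.28) and Rela one of -0.16 (SE 0.13, limma adjusted p = 0.42). Il1r1, the signaling receptor of IL-1, had a log2 fold change of -0.69 (SE 0.23, limma adjusted p = 0.078). Tnfaip3, another feedback inhibitor, was at 137, 57.9 and 140.5 against 189, 209 and 203 RPKM (0.94, SE 0.32, limma adjusted p = 0.080).

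**Figure D4:**
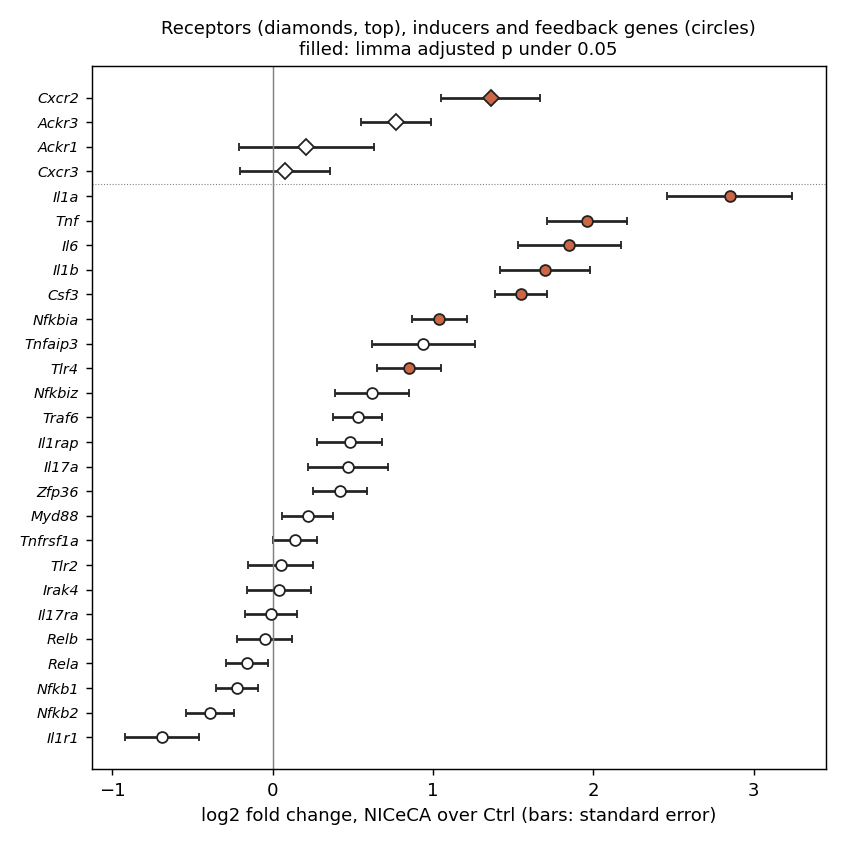
log2 fold change of NICeCA over Ctrl libraries (bars are the SE, 3 libraries per group) for the 4 fitted receptor genes (diamonds, top) and the 23 fitted inducer and feedback genes (circles), filled where the limma adjusted p is under 0.05. Cytokine genes head the list, with Il1a at 2.85 and Tnf at 1.96, while Nfkb1 and Rela lie near 0 and Il1r1 lies at -0.69.

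Markers of the cells that a CD31 bead fraction can hold were set beside the chemokines. All 5 defining endothelial markers were present, with Pecam1, the gene of CD31, at 135, 47.5 and 82.6 RPKM in Ctrl and 125, 154 and 142 in NICeCA libraries. Of 20 endothelial genes fitted, all had a positive log2 fold change and 2 were called higher, Cd93 (log2 fold change 0.87, SE 0.21, limma adjusted p = 0.040) and the VEGF receptor gene Flt1 (1.03, SE 0.27, limma adjusted p = 0.044), 0 were lower (also by limma voom and at an unadjusted p under 0.05), and the median was 0.66. The count called was 16 without Ctrl replicate 1, and both calls were lost without Ctrl replicate 2 or 3 or any NICeCA replicate, with no filter on low values and after quantile normalization. Their summed level was 1107, 447 and 577 RPKM against 930.5, 1169 and 1105, with Plvap the most abundant (230.1, 90.0 and 114 against 151, 194 and 179). Ctrl replicate 1, which had the highest endothelial sum of the Ctrl libraries, lay within the range of the NICeCA libraries, and its chemokine sum was 517 RPKM. The part of the endothelial share of the RNA in the chemokine levels was not tested.

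The labels state a purity of over 90% for the captured cells. Macrophage genes were also abundant, with a summed level of 10565, 7531 and 7878 RPKM over 18 genes in Ctrl and 11534, 10345 and 7128 in NICeCA libraries. Lyz2, encoding lysozyme, was the most abundant, at 5555, 3635 and 3759.7 against 4493, 4562 and 2611 RPKM (log2 fold change -0.17, SE 0.27, limma adjusted p = 0.68). Neither the sum nor Lyz2 separated the groups, and without Lyz2 the sum was 5010.2, 3896 and 4119 against 7041, 5783 and 4517 RPKM. Sums of different lists do not measure shares of cells. Of the 18 genes, 6 were called higher and 0 lower (limma and limma voom, 0 lower at an unadjusted p under 0.05), with a median of 0.35. The count called was 3 without Ctrl replicate 2 and with no filter on low values, 1 without NICeCA replicate 1 and 0 without NICeCA replicate 2 (7 at an unadjusted p under 0.05). Fcgr1, an activating Fc receptor gene, rose from 25.3, 27.9 and 35.7 RPKM to 96.2, 87.1 and 75.5 (1.52, SE 0.16, limma adjusted p = 0.0092). Msr1 (1.11, SE 0.20) and Cd68 (0.75, SE 0.13) were called as well, though not without Ctrl replicate 2 or NICeCA replicate 1. The call of Cd68 was also lost after quantile normalization (0.37) and that of Msr1 with no filter on low values. C1qa was at 1112, 965 and 746 against 891, 777 and 375 RPKM (-0.54, SE 0.32, limma adjusted p = 0.26). Over the NICeCA libraries Pf4 followed the macrophage sum, from 1126 in replicate 1 to 889 in replicate 3, but over the Ctrl libraries it did not, with its highest level of 172 in replicate 3. The part of macrophages in the chemokine levels was not tested.

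Neutrophil markers moved with the cluster. Of 22 genes listed, 21 had a row (Ly6g had none), 17 were fitted, 14 were called higher and 0 lower (limma and limma voom, 0 lower at an unadjusted p under 0.05), and the median log2 fold change was 1.79. The count called was 8 without Ctrl replicate 1 and 7 without Ctrl replicate 2. It was 5 without NICeCA replicate 1 and 9 without NICeCA replicate 3. With NICeCA replicate 2 left out it was 2, with 14 higher at an unadjusted limma p under 0.05. Their summed level was 259.9, 314 and 470.3 RPKM in Ctrl and 983, 1356 and 2210.5 in NICeCA libraries, and no defining marker was at 0. S100a9, a calprotectin subunit, was at 34.4, 105 and 118 against 194, 307 and 742 RPKM (2.21, SE 0.58, limma adjusted p = 0.045). It was the most abundant of the list in Ctrl replicates 2 and 3 and in NICeCA replicate 3. Clec4d led in Ctrl replicate 1 (69.4 RPKM), and S100a8 led in NICeCA replicates 1 and 2 (196 and 354 RPKM). Both the sum and S100a9 were higher in every NICeCA library, with replicate 3 highest in each group. Mmp8, neutrophil collagenase, rose from 1.28, 2.31 and 4.16 RPKM to 38.8, 45.9 and 71.1 (3.92, SE 0.32, limma adjusted p = 0.0069). Mmp9 (3.10, SE 0.38, limma adjusted p = 0.011), the IL-1 decoy receptor gene Il1r2 (1.90, SE 0.23) and the C-type lectin gene Clec4d (1.57, SE 0.19) were among the other genes called. The G-CSF receptor gene Csf3r, another gene of mature neutrophils, was at 6.21, 5.89 and 10.2 against 7.18, 9.85 and 17.0 RPKM (0.51, SE 0.30, limma adjusted p = 0.27). The part of neutrophil RNA in the chemokine levels was not tested.

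Platelet and megakaryocyte markers were set beside Ppbp and Pf4. Of 20 genes, all with a row, 9 were fitted, 1 was called higher and 0 lower (limma and limma voom, 0 lower at an unadjusted p under 0.05), and the median log2 fold change was 0.26. The gene called, Thbs1, encodes thrombospondin 1, which macrophages and stromal cells also make, and was at 396, 232 and 626 RPKM in Ctrl and 1432, 1198 and 1762 in NICeCA libraries (1.90, SE 0.34, limma adjusted p = 0.022). This call was lost without NICeCA replicate 1 or 2 and with no filter on low values, and 2 genes were called without Ctrl replicate 3 and after trimmed mean scaling. Without Thbs1 the other 19 genes summed to 97.0, 63.0 and 129 RPKM against 163, 176 and 157. Most of that sum was Plek, encoding pleckstrin, which leukocytes also make, at 62.7, 42.6 and 97.2 against 121, 139.5 and 118 RPKM (0.97, SE 0.27, limma adjusted p = 0.052). Without both genes the other 18 summed to 34.2, 20.3 and 31.6 RPKM against 42.2, 36.2 and 38.3, still higher in every NICeCA library. The integrin gene Itgb3, which other cells share, was a large part of these sums, at 12.9, 5.77 and 12.7 against 16.9, 17.3 and 17.7 RPKM (0.75, SE 0.26, limma adjusted p = 0.089). With Itgb3 taken out as well, the sums overlapped between the groups, Ctrl replicate 1 then lying above NICeCA replicates 2 and 3. The purinergic receptor genes P2rx1 (0.83, SE 0.31, limma adjusted p = 0.10) and P2ry12 (0.07, SE 0.30, limma adjusted p = 0.88) were at 0.247 to 3.59 and 3.01 to 7.63 RPKM. Itgb3 and P2rx1 were thus separated between the groups without being called, and P2ry12 overlapped. Of the 6 defining markers 0 were at 0 in every library, Gp6 lay between 0.0218 and 0.0932 RPKM and Gp1ba between 0.452 and 0.854 RPKM, and Gp9, Treml1 and Tubb1 reached at most 2.25, 1.24 and 1.47 RPKM. Itga2b, the platelet integrin gene, was at 2.03, 0.957 and 1.40 against 2.58, 1.42 and 1.80 RPKM (0.26, SE 0.21, limma adjusted p = 0.42). The part of platelet RNA in the levels of Ppbp and Pf4 was not tested.

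Of 9 fibroblast genes fitted, 3 were called lower, namely Col3a1 (log2 fold change -1.13, SE 0.30, limma adjusted p = 0.048), Pdgfra (-0.89, SE 0.23, limma adjusted p = 0.043) and Lum (-1.01, SE 0.26, limma adjusted p = 0.043), 1 was called higher, Postn (1.14, SE 0.22, limma adjusted p = 0.027), and the median was -0.19. Each of these calls was lost when Ctrl replicate 2 or NICeCA replicate 1 was left out and with no filter on low values. Those of Lum and Pdgfra were also lost without Ctrl replicate 3 and after quantile normalization, and that of Col3a1 without Ctrl replicate 1 or 3 and after trimmed mean scaling. Their summed level was 346, 578 and 413 RPKM in Ctrl and 218, 173 and 349 in NICeCA libraries, with Col3a1 the most abundant. Of the tumor epithelial genes, 2 were fitted and Krt18 was called lower (-0.98, SE 0.23, limma adjusted p = 0.038), a call lost without any 1 library other than NICeCA replicate 3, with no filter on low values and after quantile normalization, while Krt8 and Epcam stayed under 1 RPKM. Of 8 T and NK cell genes 0 were called by limma or limma voom (0 higher and 1 lower at an unadjusted p under 0.05, median -0.01), and of 6 mast cell genes 0 were called (0 at an unadjusted p under 0.05, median 0.55).

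**Figure D5:**
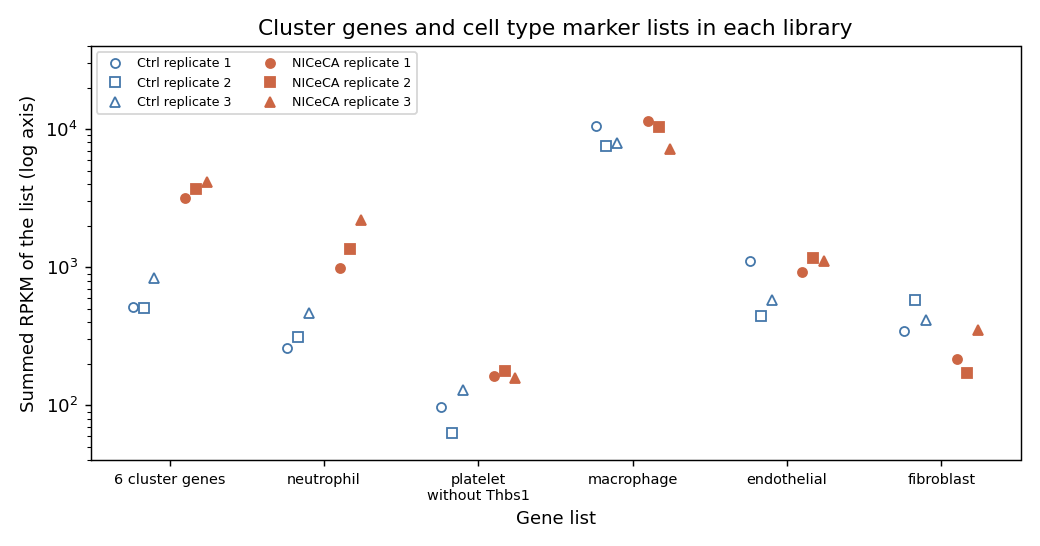
Summed RPKM (log axis) of the 6 chemokine genes and of 5 marker lists in each library, with open blue symbols for Ctrl and filled orange symbols for NICeCA. The chemokine sums (511 to 834 against 3198 to 4163) and neutrophil sums (259.9 to 470.3 against 983 to 2210.5) separate the groups, as do those of the platelet list without Thbs1 (63.0 to 129 against 157 to 176, mostly Plek), and the macrophage sums overlap.

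The genes with the profile most like each member over the 6 libraries were found by Pearson's r of log2(RPKM + 1), given as a description, since all profiles share the libraries and the 2 groups. For Cxcl2 these were Maff (r = 0.999), Ntan1 (0.997) and Ccl3 (0.996). Ccl3, the chemokine MIP-1α, was at 33.2, 32.1 and 72.7 RPKM in Ctrl and 177, 276 and 309 in NICeCA libraries, with Ctrl replicate 3 and NICeCA replicate 3 the highest of each group as for Cxcl2. For Cxcl1 they were Fam114a1 (0.990), Sqstm1 (0.988) and the arterial connexin gene Gja4 (0.986), and for Cxcl3 they were Rraga, Inhba (0.997 each) and Slpi (0.995). Inhba, encoding an activin subunit, was at 1.34, 4.16 and 14.9 RPKM against 47.1, 59.3 and 77.2, with replicate 1 the lowest and replicate 3 the highest library of each group, as for Cxcl3.

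For Cxcl5 the most alike profiles were Il1f9 (0.989), Stfa2l1 (0.988) and Asprv1 (0.985), all 3 highest in NICeCA replicate 3, as was Cxcl5. Stfa2l1, a stefin gene, was at 1.61, 3.40 and 6.56 RPKM in Ctrl and 14.2, 37.3 and 65.0 in NICeCA libraries. Those of Ppbp were Prdx6 (0.998), Dnajc8 and Eaf1 (0.997 each), and those of Pf4 were Ier3 and Ctsl (0.998 each) and Lhfpl2 (0.997). Ctsl, the lysosomal protease cathepsin L, was at 199.6, 167 and 219 RPKM in Ctrl and 585, 550.1 and 522 in NICeCA libraries, lowest in NICeCA replicate 3 as was Pf4. Between members r ranged from 0.803 for Cxcl5 and Pf4 to 0.988 for Cxcl2 and Ppbp.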

How the data were processed

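Paired 150-base reads were aligned with TopHat2 per the submitters' processing notes. The authors deposited RPKM values per library for 56826 rows, of which 23473 carry RefSeq names and 33353 are FANTOM3 models. No counting tool is named in the labels or methods. Those notes name the build as mm9, but 99.4% of 21845 rows matched by symbol overlapped that gene in GRCm38. RPKM times row length gave whole reads for 100.0% of values under 1000 reads (within 0.05), which gave the depths.

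From the deposited RPKM, log2(RPKM + 1) of RefSeq rows with a mean of at least 1 RPKM was fitted with limma 3.58.1 in R 4.3.3 (mean-variance trend, two-sided, Benjamini-Hochberg, threshold 0.05). All 6 libraries entered, grouped by the labels, without covariates. The p-values weigh the difference between the groups against the spread between libraries within a group. The procedure was tested on simulated data.

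The members and lists were chosen with earlier results of these data known. Of 162 listed genes, 161 had a row. Named genes are the members, receptors, neighbors, up to 4 called genes and the most abundant gene of each list (1 macrophage gene is not reported here), and the 3 most alike profiles; Csf3r, C1qa, the remaining called inducers, Nfkb1, Rela, Il1r1, Tnfaip3, Itga2b, Plek, Itgb3, P2rx1, P2ry12 and the defining platelet genes were named after their values were seen. Alternatives comprised a pseudocount of 0.1, other filters and scalings, limma without the trend, limma voom on recovered reads, a replicate block, FANTOM3 rows and leaving out each library. Protein sequences were not analysed here.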

Additional observations from a re-analysis of the deposited data

Results flagged for a closer look

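A FANTOM3 transcript model outside the comparison above, A930010L22, covers Cxcl5 on the same strand and was at 0.44, 1.74 and 2.85 RPKM in Ctrl and 3.73, 11.9 and 21 RPKM in NICeCA libraries. It stood out because its lowest NICeCA library (3.73 RPKM) lay above its highest Ctrl library (2.85 RPKM). Such separation held for 16.5% of the fitted rows. The model shares exons with Cxcl5, so both rows count many of the same reads and it adds nothing independent of Cxcl5. The other 3 FANTOM3 models within the span of the cluster were at or below 0.107 RPKM in every library. Dixon's test of single values was not applied to groups of 3 libraries.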

How the results depend on the processing

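The log2 fold changes of all 6 chemokine genes stayed positive under all 15 alternatives. With 1 library left out they ranged from 1.48 to 1.95 for Cxcl1, 2.02 to 2.40 for Cxcl2, 3.19 to 4.66 for Cxcl3, 1.63 to 2.73 for Cxcl5, 3.81 to 4.65 for Ppbp and 2.83 to 3.20 for Pf4, and the number of the 6 called from 2 to 6. Under quantile normalization Cxcl1 fell to 1.37, Cxcl2 to 1.82 and Pf4 to 2.66. Counts over all rows (725 higher, 946 lower) were 327 and 209 with a replicate block, 260 and 105 with no filter, and 446 and 325 after quantile normalization. A mean of at least 5 RPKM left 579 lower, and FANTOM3 rows raised that count to 2185. Leaving out 1 library gave 17 to 911 higher and 1 to 832 lower. With no filter 4 inducer and 8 neutrophil genes were called, and with 1 library left out 0 to 9 and 2 to 14. In the same leave-one-out fits, the genes that changed sign, none of them called, ranged from -0.0025 to 0.24 for Mthfd2l, -0.26 to 0.37 for Cxcr3 and -0.19 to 0.70 for Ackr1 (Darc). The methods speak of pairs of NICeCA and control mice, but no label ties a replicate number to a pair, and deviations of same-numbered libraries correlated at 0.122, -0.343 and -0.178. With the replicate block the endothelial genes called went from 2 to 0 and the macrophage genes from 6 to 3, and the calls of Hey1, Cd93, Flt1, Cd68, Msr1, Pdgfra, Col3a1 and Krt18 were lost, with limma adjusted p of at most 0.084. The causes of these shifts were not tested. Depth limits Cxcl5 most, with 33 reads in its lowest library, and 3 mice per group limit every call.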
